A study of Mus musculus with 2 samples.

Results

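The insulin and insulin-like growth factor (IGF) signaling genes described here are *Igf1*, *Igfals*, *Igfbp1*, *Igfbp2*, *Igfbp3*, *Igfbp4*, *Igf1r*, *Insr*, *Irs1* and *Irs2*. They were chosen by gene symbol, and all 10 were found among the 34745 genes listed for the series. The study used RNA-seq to ask how the loss of the microRNA miR-182-5p changes gene expression in the regenerating mouse liver. The samples were 1 library of liver from mice heterozygous for a knockout of the microRNA (KO) and 1 library of liver from wild-type (WT) mice. Both came from male mice of 8 to 10 weeks, fed ad libitum, at day 3 after 2/3 partial hepatectomy (PH) performed in the early morning, so that surgery, day, sex and age were shared by both genotypes. The KO mice keep 1 intact allele of the microRNA in every cell type. How many mice went into each library was not given in the sources used here. With 1 library per genotype there was no replicate spread, so the genotypes could not be tested, and every interval below is an exact 95% interval that covers counting error only.

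The liver makes most of the IGF1 in the blood, under the control of growth hormone. In serum, IGF1 circulates mainly in a ternary complex with IGFBP3 and the acid-labile subunit, the product of *Igfals*, while the other IGF-binding proteins hold it in smaller complexes and are cut by proteases that free the ligand. IGF1 acts through the receptor encoded by *Igf1r*, which adult hepatocytes are known to carry in very low amount, whereas insulin acts on hepatocytes through the receptor encoded by *Insr*, and both receptors signal through the docking proteins IRS1 and IRS2 to PI3K and AKT. AKT keeps the transcription factor FOXO1 out of the nucleus, and *Igfbp1* and *Irs2* are classical hepatic genes that FOXO1 activates and insulin represses.

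The microRNA that the KO mice lack in part is shown first, because its seed sets which transcripts it could pair with. In the RefSeq set for GRCm38.p6 mature miR-182-5p lies at chr6:30165962-30165986 on the minus strand, and the capitals mark its seed, bases 2 to 8.
mmu-miR-182-5p: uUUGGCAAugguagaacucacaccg

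The longest annotated 3′ UTR of each gene in GENCODE M21 was searched for the complement of the seed with a following A, TTGCCAAA, on the transcribed strand. This 8-base match was found in 4.63% of 21153 genes, and a match to it or to either of its 7-base parts in 19.2%. Of the 10 genes, *Igf1* and *Igf1r* held the 8-base match and the other 8 held no 7- or 8-base match. The 3′ UTR of *Igf1*, of 6308 bases, held the 8-base match at base 1862 and a 7-base match at base 1713. The 3′ UTR of *Igf1r*, of 7267 bases, held the 8-base match at base 672 and a 7-base match at base 5943. The 8-base matches are printed with 10 bases on each side, in capitals where they pair with the seed and the A.
Igf1: tctactcagtTTGCCAAAcacaattctc
Igf1r: gctgccatttTTGCCAAAatcctgtttt

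RefSeq promoter windows, 250 bases before to 50 bases after an annotated start, were found for 9 of the 10 genes, all but *Insr*, in 12 windows. They were searched on both strands for CAAAACA, the core of the insulin response element to which FOXO proteins bind, and for the E-box CACGTG. The core was present in 6.28% and the E-box in 7.15% of 32851 promoter windows. The core was found in *Igfbp1*, *Irs1* and *Irs2*, and the E-box in *Igfbp2*, *Irs1* and *Irs2*, and the windows of *Igf1*, *Igfals*, *Igfbp3*, *Igfbp4* and *Igf1r* held neither. The 4 windows with a match and that of *Igfbp4*, the gene with the largest difference between the libraries, are printed 5′ to 3′ in the direction of the gene, with capitals for the matches. A core on the minus strand reads TGTTTTG.
Igfbp1, chr11:7197537-7197836, plus strand: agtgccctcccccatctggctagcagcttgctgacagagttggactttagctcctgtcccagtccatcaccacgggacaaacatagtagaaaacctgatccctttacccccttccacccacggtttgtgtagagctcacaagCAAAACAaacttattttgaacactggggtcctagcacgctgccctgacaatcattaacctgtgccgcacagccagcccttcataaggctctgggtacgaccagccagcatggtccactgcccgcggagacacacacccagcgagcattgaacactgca
Irs2, chr8:11008880-11009179, minus strand: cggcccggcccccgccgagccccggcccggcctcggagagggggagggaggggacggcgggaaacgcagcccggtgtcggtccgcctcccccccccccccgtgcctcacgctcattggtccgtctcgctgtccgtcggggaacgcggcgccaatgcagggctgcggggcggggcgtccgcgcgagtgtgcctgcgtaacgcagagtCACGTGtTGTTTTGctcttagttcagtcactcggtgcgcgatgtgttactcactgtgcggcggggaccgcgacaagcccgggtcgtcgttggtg
Irs1, chr1:82291390-82291689, minus strand: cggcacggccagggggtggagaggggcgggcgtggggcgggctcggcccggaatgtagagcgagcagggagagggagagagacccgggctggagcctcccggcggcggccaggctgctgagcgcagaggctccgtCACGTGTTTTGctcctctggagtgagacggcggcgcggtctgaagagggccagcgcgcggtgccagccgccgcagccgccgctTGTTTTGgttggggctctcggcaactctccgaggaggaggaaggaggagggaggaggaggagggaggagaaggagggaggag
Igfbp2, chr1:72824230-72824529, plus strand: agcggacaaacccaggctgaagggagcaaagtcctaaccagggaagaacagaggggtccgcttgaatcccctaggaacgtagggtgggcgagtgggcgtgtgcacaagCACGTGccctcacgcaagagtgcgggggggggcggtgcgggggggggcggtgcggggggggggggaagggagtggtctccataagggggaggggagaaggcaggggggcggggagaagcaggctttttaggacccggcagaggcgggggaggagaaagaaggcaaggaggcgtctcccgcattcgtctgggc
Igfbp4, chr11:99040994-99041293, plus strand: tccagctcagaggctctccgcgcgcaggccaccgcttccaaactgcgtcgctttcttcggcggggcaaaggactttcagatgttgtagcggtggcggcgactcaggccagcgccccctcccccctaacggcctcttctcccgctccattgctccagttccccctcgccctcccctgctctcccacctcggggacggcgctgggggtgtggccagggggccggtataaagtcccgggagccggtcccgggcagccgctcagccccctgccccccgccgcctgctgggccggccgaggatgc
In *Igfbp1* the core began 108 bases before the start. In *Irs2* the E-box began 44 bases and the core 37 bases before the start, 1 base apart. In *Irs1* the E-box began at 115 bases before the start and the first of 2 cores at 111, so that these words overlapped. The windows of *Irs1* and *Irs2* were the ones that held both words. A match is a run of letters and not a bound site.

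The libraries held 13247497 counts (KO) and 13163348 counts (WT). The mitochondrial genome supplied 51.7% of the KO and 31.0% of the WT counts. Fold changes below are therefore given on TMM-scaled counts, which put the median of the 13561 genes assessed, those with at least 10 counts over both libraries, at 0.00 on the log2 scale, while scaling by total counts shifted that median by −0.60. FPKM, the count per length and depth that the authors computed, is scaled by total counts and carries the same shift. The summed level of 8 hepatocyte markers was 57555 CPM (counts scaled to a common library size) in the KO and 56354 in the WT library, so the tissue label fitted both, and 4 islet markers, *Ins1* and *Ins2* among them, were at 0 in both. Markers of other liver cells were mostly lower in the KO library, with medians of −0.52 for 9 stellate cell markers (8 below 0, summed 133 against 195 CPM), −0.42 for 8 endothelial markers (7 below 0, 88.0 against 107 CPM) and −0.59 for 8 Kupffer cell and macrophage markers (8 below 0, 143 against 199 CPM). None of these markers was at 0 in either library. The medians of 5 cholangiocyte and 4 neutrophil markers were 0.40 and 0.38 (164 against 125 and 44.1 against 37.7 CPM), and those of 5 erythroid and 2 lymphocyte markers −0.59 and 0.59 (84.7 against 80.4 and 2.05 against 1.91 CPM). At 0 were *Ly6g* in both libraries, *Mpo*, *Cd3e* and *Cd3d* in the KO library and *Cftr* in the WT library. In bulk tissue fewer cells of a type and less RNA per cell cannot be told apart. The level of *Mir182* was not analysed here and gives no check of the genotype labels.

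The transcripts of the ligand and of its serum partner stood in nearly the same ratio in both livers. *Igf1* (ENSMUSG00000020053, chromosome 10, 87858265 to 87937042, GRCm38, plus strand) had 11193 KO and 11285 WT counts, or 64.3 and 65.2 FPKM. *Igfals* (ENSMUSG00000046070, chromosome 17, 24878770 to 24882008) had 740 and 774 counts, or 26.5 and 27.9 FPKM. The raw levels of both genes were thus nearly alike in the libraries. Relative to the median gene both were higher in the KO library, *Igf1* by 0.58 on the log2 scale (0.54 to 0.62) and *Igfals* by 0.53 (0.38 to 0.67), and with total counts the differences were −0.02 and −0.07. The ratio of the 2 genes within a library does not depend on the scaling. It was 0.412 *Igfals* FPKM per *Igf1* FPKM in the KO library (0.382 to 0.443) and 0.427 in the WT library (0.397 to 0.459), and these intervals overlapped. The antisense gene *Igf1os*, which overlaps *Igf1* on the other strand, held 35 counts over both libraries, and whether reads were counted by strand was not given in the sources used here.

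**Figure D1:**
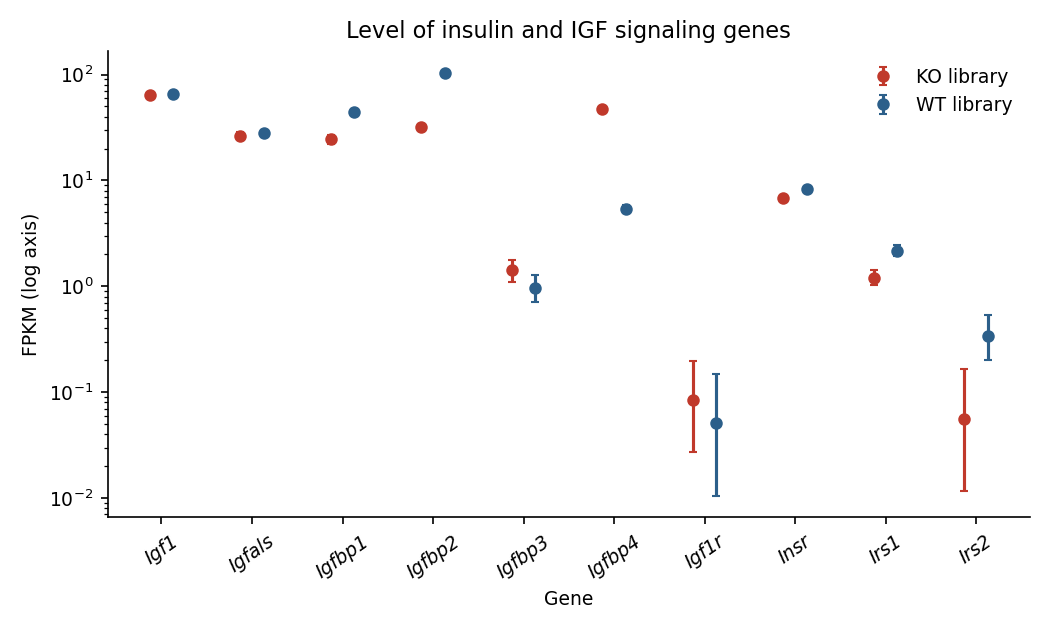
FPKM of each of the 10 genes (log axis) in the KO library (red) and the WT library (blue), 1 point per library, with exact 95% Poisson intervals for counting error. *Igf1* and *Igfals* lay side by side, *Igfbp4* was at 46.9 FPKM in the KO and 5.38 in the WT library, and *Igf1r* and *Irs2* lay below 1 FPKM in both.

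Of the 4 binding protein genes 3 were past 2-fold, where 19.4% of all genes assessed were, and 1 of the 3, *Igfbp3*, was not with total counts. *Igfbp4*, whose product binds IGFs and is known to inhibit their action until the protease PAPP-A cuts it, was 13.2-fold higher in the KO library. *Igfbp2*, a binding protein that fasting raises and growth hormone lowers, was 2.11-fold lower. *Igfbp1*, the acute insulin- and stress-responsive member, differed by less than 2-fold, and *Igfbp3* was 2.21-fold higher at a low level.

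*Igfbp4* (ENSMUSG00000017493, chromosome 11, 99041244 to 99054392, plus strand) had 3792 KO and 433 WT counts, 46.9 and 5.38 FPKM. The KO level stood far above the WT level, and the fitted log2 fold change was 3.72 (3.58 to 3.87), or 3.12 with total counts. Of the 13561 genes assessed, 108 (0.796%) were at least as far above 0, and 27 (0.337%) of the 8009 genes with at least 100 counts in the higher library. *Igfbp4* overlaps no annotated gene, and 1.92% of the 51-base words of its longest transcript occur in transcripts of other genes. Its neighbours, named after their values were seen, went the other way or were nearly silent. *Top2a*, 17054 bases before it, had 104 KO and 374 WT counts (log2 fold change −1.25), and *Tns4*, 11285 bases after it, had 0 and 4 counts. In the library in which *Igfbp4* was higher, the marker sums of stellate, endothelial and Kupffer cells were lower. Those of cholangiocytes and neutrophils were higher, by 0.39 and 0.23 on the log2 scale. Those of hepatocytes, erythroid cells and lymphocytes were higher by 0.03, 0.08 and 0.10. Most of the cholangiocyte sum was *Spp1* (1638 KO and 1875 WT counts). *Krt19* (26 and 7 counts) and *Krt7* (15 and 6) were past 2-fold higher, where 9.46% of all genes were. *Sox9* (69 and 129) was lower, at −0.31, and *Epcam* was at 0.14. The part of these cells in the level of *Igfbp4* was not tested.

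*Igfbp2* (ENSMUSG00000039323, chromosome 1, 72824503 to 72852474, plus strand) had 1142 KO and 3632 WT counts, 32.0 and 102 FPKM. It was the highest of the 10 genes in the WT liver, and the KO library was lower on both scalings, with a log2 fold change of −1.08 (−1.17 to −0.98) with TMM and −1.68 with total counts. The interval on the TMM scale reached inside 2-fold, and 8.76% of all genes assessed were at least as far below 0. *Igfbp5*, the gene next to it, lies 5457 bases away on the opposite strand with its 3′ end facing that of *Igfbp2*. It had 79 KO and 27 WT counts (log2 fold change 2.12, 1.49 to 2.83), so the neighbours differed in opposite directions. *Igfbp5* was named after its values were seen.

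*Igfbp1* (ENSMUSG00000020429, chromosome 11, 7197782 to 7202546, plus strand) had 493 KO and 882 WT counts, 24.4 and 43.9 FPKM. Its log2 fold change was −0.25 (−0.41 to −0.09), and −0.85 with total counts. *Igfbp3* (ENSMUSG00000020427, 7206086 to 7213923, minus strand), the carrier of the ternary complex, lies 3539 bases from *Igfbp1*, and the 3′ ends of the genes face each other. *Igfbp3* had 71 KO and 48 WT counts, 1.42 and 0.964 FPKM. The KO library was higher, by 1.15 on the log2 scale (0.61 to 1.72), but by 0.55 with total counts, which ended the 2-fold call. In the liver *Igfbp3* is known to be made mainly by non-parenchymal cells. *Igfbp3* was higher in the same library as *Igfbp4*, beside the same marker sums, and their part in its level was not tested either.

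The make-up of the binding protein mRNAs differed more than their sum. *Igfbp1* to *Igfbp4* summed to 104.7 FPKM in the KO library and 152.7 FPKM in the WT library. FPKM carries the shift of total counts, which put the median of all genes at −0.60 on the log2 scale. The difference between the 2 sums therefore depends on the scaling, whereas the shares within a library do not. *Igfbp2* made up 67.1% of the sum in the WT liver and 30.6% in the KO liver. *Igfbp4* made up 3.53% in the WT and 44.8% in the KO liver, and thus took the first place there. *Igfbp1* held 28.8% and 23.3%, and *Igfbp3* 0.631% and 1.35%. Per FPKM of *Igfbp2* there were 1.46 FPKM of *Igfbp4* in the KO library (1.37 to 1.57) and 0.0526 in the WT library (0.0475 to 0.0581), a ratio that was 27.9-fold higher in the KO library and that no scaling of the libraries can alter. Per FPKM of *Igf1*, *Igfbp2* was at 0.498 in the KO and 1.57 in the WT library, and *Igfbp4* at 0.729 and 0.0826.

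**Figure D2:**
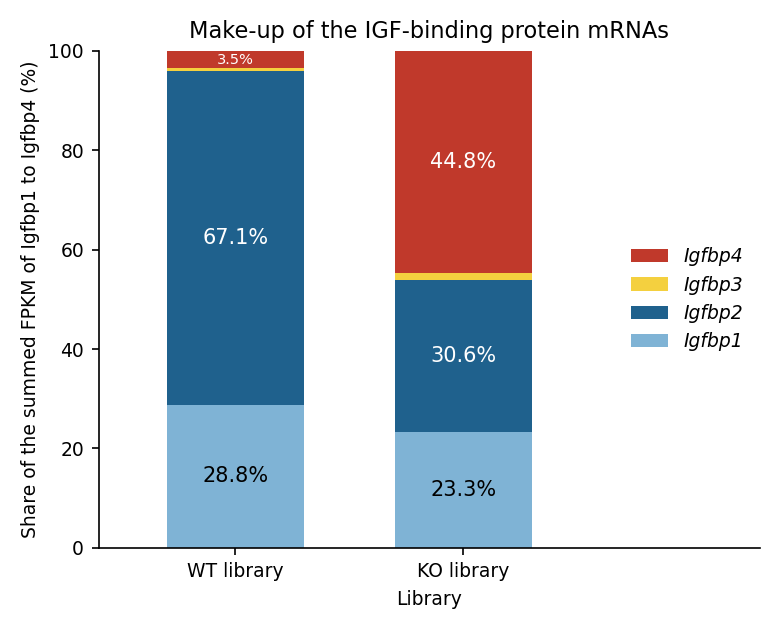
Share of the summed FPKM of *Igfbp1* to *Igfbp4* (%, stacked bars) taken by each gene in the WT and the KO library, 1 library each. *Igfbp2* filled 67.1% of the WT bar and 30.6% of the KO bar, and *Igfbp4* 3.53% and 44.8%.

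The receptors differed from each other in level by far more than the genotypes did. *Insr* (ENSMUSG00000005534, chromosome 8, 3150922 to 3279617, minus strand), the insulin receptor, had 942 KO and 1155 WT counts, 6.79 and 8.37 FPKM. The libraries were close, with a log2 fold change of 0.30 (0.17 to 0.42), or −0.30 with total counts. The gene model that was counted for *Insr* ends 28861 bases before the end of the gene in GENCODE M21. Its implied length was 10478 bases, against 13746 bases of summed exons in M21. *Igf1r* (ENSMUSG00000005533, chromosome 7, 67952859 to 68226780, plus strand) had 5 KO and 3 WT counts, 0.0841 and 0.0508 FPKM. It was the 1 gene of the 10 below the minimum of 10 counts, and a difference between the libraries was not detectable at this depth (log2 ratio 1.18, −1.03 to 4.02). The gene model that was counted for *Igf1r* ends 6888 bases before the end of the gene in GENCODE M21, whose 3′ UTR has 7267 bases, so that most of this UTR, the 7-base match to miR-182-5p at base 5943 and the 8-base match at base 672 lie outside the counted interval. How many reads fell there was not analysed here. *Insr* FPKM per *Igf1r* FPKM was 80.7 in the KO library (34.5 to 249) and 165 in the WT library (56.3 to 801), and the intervals overlapped.

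The insulin receptor substrates were both at low levels. *Irs1* (ENSMUSG00000055980, chromosome 1, 82233101 to 82291416, minus strand) had 146 KO and 261 WT counts, 1.21 and 2.17 FPKM. Its log2 fold change of −0.25 (−0.55 to 0.05) had an interval that included 0 on the TMM scale and was −0.85 with total counts. *Irs2* (ENSMUSG00000038894, chromosome 8, 10986980 to 11008458, minus strand) had 3 KO and 18 WT counts, 0.0563 and 0.340 FPKM. The KO library was lower, with a log2 ratio of −1.86 whose interval, −4.40 to −0.22, was wide at so few counts. The counted model of *Irs2* ends 2299 bases before the end of the gene in GENCODE M21, which leaves out most of its 3′ UTR of 2329 bases. *Irs1* FPKM per *Irs2* FPKM was 21.4 in the KO library (7.18 to 105) and 6.38 in the WT library (3.96 to 10.9), with overlapping intervals. The promoters with the insulin response core belonged to *Igfbp1*, *Irs1* and *Irs2*, whose log2 fold changes were −0.25, −0.25 and −1.86. All 3 were below 0, as were 6778 of the 13561 genes assessed.

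**Figure D3:**
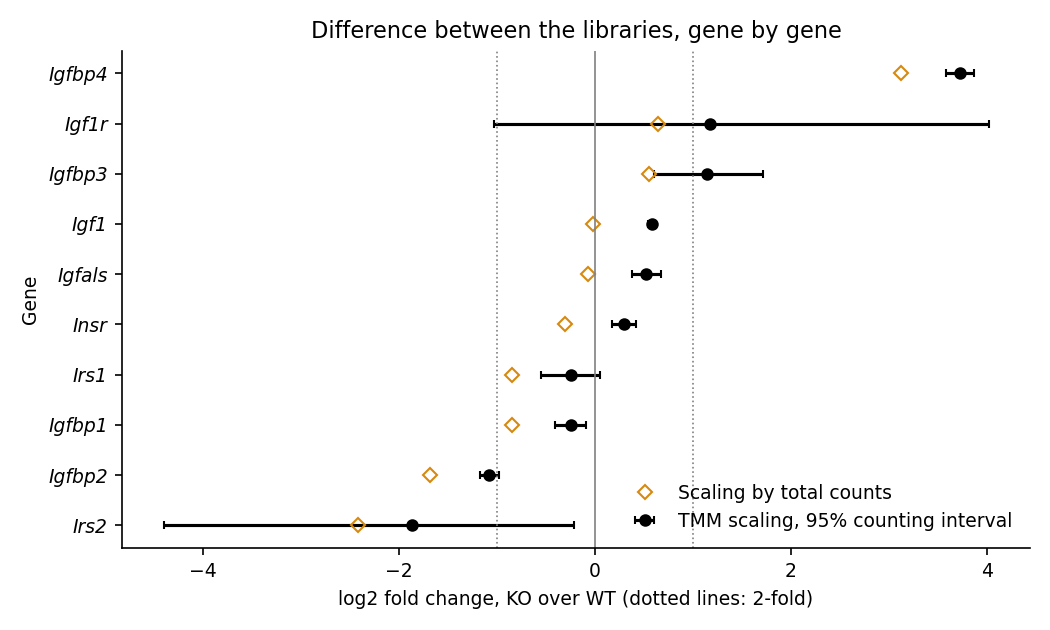
Log2 fold change of the KO over the WT library for the 10 genes, by TMM scaling (black, with exact 95% counting intervals) and by total counts (open diamonds), with dotted lines at 2-fold. *Igfbp4* at 3.72 stood apart from the rest, *Igfbp2* and *Irs2* lay below −1, and total counts moved every gene to the left.

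Counted over the genes, 9 of the 10 had enough counts to be assessed, and those without a 2-fold difference were *Igf1*, *Igfals*, *Igfbp1*, *Insr* and *Irs1*. Higher by at least 2-fold in the KO library were 2, *Igfbp3* and *Igfbp4*, where 9.46% of all genes assessed were. Lower by at least 2-fold were 2, *Igfbp2* and *Irs2*, where 9.94% of all genes were. In either direction this made 44.4% of the 9 genes against 19.4% of all genes. Among genes with at least 100 counts in the higher library, 2 of 7 (*Igfbp2* and *Igfbp4*) were past 2-fold, 1 in each direction, against 11.1% of all such genes (4.72% higher and 6.37% lower). The median log2 fold change of the 9 genes was 0.30 against 0.00 over all genes, and −0.30 against −0.60 with total counts. A two-sided exact binomial test of the reads, which compares the libraries and not the genotypes, left the 4 calls in place, where 7.97% of all genes were higher and 8.32% lower. With total counts *Igfbp3* lost its call, where 4.6% of all genes were higher and 26.6% lower. In edgeR's exact test with an assumed coefficient of variation between animals of 0.2 or of 0.4, *Igfbp4* alone kept its call, where 6.87% and 0.863% of all genes were called.

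Ranked by FPKM within a library, the order of the genes differed between the livers. In the WT liver it ran *Igfbp2*, *Igf1*, *Igfbp1*, *Igfals*, *Insr*, *Igfbp4*, *Irs1*, *Igfbp3*, *Irs2* and *Igf1r*, and no neighbours in it had overlapping intervals. In the KO liver it ran *Igf1*, *Igfbp4*, *Igfbp2*, *Igfals*, *Igfbp1*, *Insr*, *Igfbp3*, *Irs1*, *Igf1r* and *Irs2*. There the intervals of *Igfals* and *Igfbp1*, of *Igfbp3* and *Irs1*, and of *Igf1r* and *Irs2* overlapped, so these neighbours were not ordered. *Igfbp4* stood in place 2 in the KO and in place 6 in the WT liver. Levels per length depend on the gene length, and the length implied by counts and FPKM differed from the summed exon length in GENCODE M21 for 8 of the 10 genes, for example 4489 against 16791 bases for *Igf1r* and 6109 against 4416 for *Igfbp4*. With the M21 lengths *Igfals* and *Igfbp1* and *Igf1r* and *Irs2* changed places in the KO liver, and *Insr* and *Igfbp4* in the WT liver.

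The rest of the pathway was described from 5 lists with 76 genes, of which 67 had enough counts. Of these, 9 were higher and 4 lower by at least 2-fold in the KO library. This made 19.4% in all, the same share as over all genes assessed. The median of the 67 genes was 0.14 (−0.46 with total counts). The share over all genes depends on the counts, and was 11.1% for genes with at least 100 counts in the higher library. The lists here and below were not compared at that minimum. The other IGF ligands, binding proteins and proteases were mostly near or at 0 counts. *Igf2*, the fetal ligand, had 32 KO and 3 WT counts (log2 ratio 3.76, 2.33 to 6.36), but 75.9% of its 51-base words also occur in the gene *Gm49394*, so its count is uncertain. *Igf2r*, which carries IGF2 to lysosomes, had 184 and 434 counts (−0.64, −0.90 to −0.39), and *Igfbp7*, which binds IGFs weakly, had 236 and 568 (−0.67, −0.90 to −0.45). *Pappa*, the protease that cuts IGFBP4 and a gene also named after its values were seen, had 0 KO and 1 WT counts.

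Of 14 adaptors and inhibitors that act at the receptors, 5 were higher and 0 lower by at least 2-fold in the KO liver, 35.7% against 19.4% of all genes (9.46% higher), and their median was 0.60 (0.01 with total counts). *Ptpn1*, the phosphatase that dephosphorylates the insulin receptor, had 170 KO and 61 WT counts (2.06, 1.64 to 2.52). *Socs2*, an inhibitor of growth hormone signaling, had 315 and 137 (1.79). *Ceacam1*, which promotes insulin clearance by hepatocytes, had 259 and 124 (1.65, 1.34 to 1.98), with 49.1% of its words shared with *Ceacam2*. *Socs3*, a cytokine-induced inhibitor, had 305 and 228 counts, and its 1.01 (0.76 to 1.27) was 0.41 with total counts, below the 2-fold call. *Socs1*, named after its values were seen, had 10 and 0 counts, and the lower limit of its log2 ratio was 1.76. The adaptors *Grb10* and *Grb14*, which bind the activated insulin receptor, stood at 0.67 and −0.11.

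In the PI3K-AKT arm 26 of 28 genes were within 2-fold, with a median of 0.07 (−0.52 with total counts). Past 2-fold were 7.14%, against 19.4% of all genes assessed. The exceptions were catalytic subunits of PI3K. *Pik3ca*, the subunit through which insulin mainly acts in liver, had 29 KO and 317 WT counts, a log2 fold change of −2.84 (−3.46 to −2.31). *Pik3cb*, named after its values were seen, had 86 and 18 counts and went the other way, at 2.81 (2.10 to 3.67). The regulatory subunit *Pik3r1* stood at −0.36, and the kinases *Akt1* and *Akt2* at −0.28 and −0.10. The transcription factors *Foxo1* (233 and 300 counts) and *Foxo3* (205 and 262 counts) were at 0.23 and 0.24, and at −0.37 and −0.36 with total counts.

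Among liver genes that insulin is known to regulate, the fasting gene *Pdk4* and the lipogenic gene *Scd1* were lower by at least 2-fold in the KO liver. Of 14 genes, 0 were higher and 3 lower by at least 2-fold, 21.4% against 19.4% of all genes and thus near that share, and the median was −0.37 (−0.96 with total counts). *Pdk4*, a kinase that blocks pyruvate oxidation and that insulin represses, had 15 KO and 221 WT counts (−3.25, −4.15 to −2.54). *Scd1*, a desaturase that insulin induces, had 8833 and 35900 counts (−1.43, −1.46 to −1.40), and *Pnpla3*, also insulin-induced and named after its values were seen, had 18 and 71 (−1.37). The 3 lower genes hold insulin-repressed and insulin-induced ones. The gluconeogenic genes *Pck1* (15078 and 16220 counts) and *G6pc* were at 0.49 and 0.32, and turned to −0.11 and −0.28 with total counts. In the growth hormone axis, which drives *Igf1* and *Igfals*, 1 of 6 genes was past 2-fold, 16.7% against 19.4% of all genes and thus near that share. It was *Cish*, a STAT5 target with 102 KO and 33 WT counts (2.20, 1.64 to 2.83), while the receptor *Ghr* was at 0.52 and *Stat5b* at 0.16 (−0.08 and −0.44 with total counts).

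**Figure D4:**
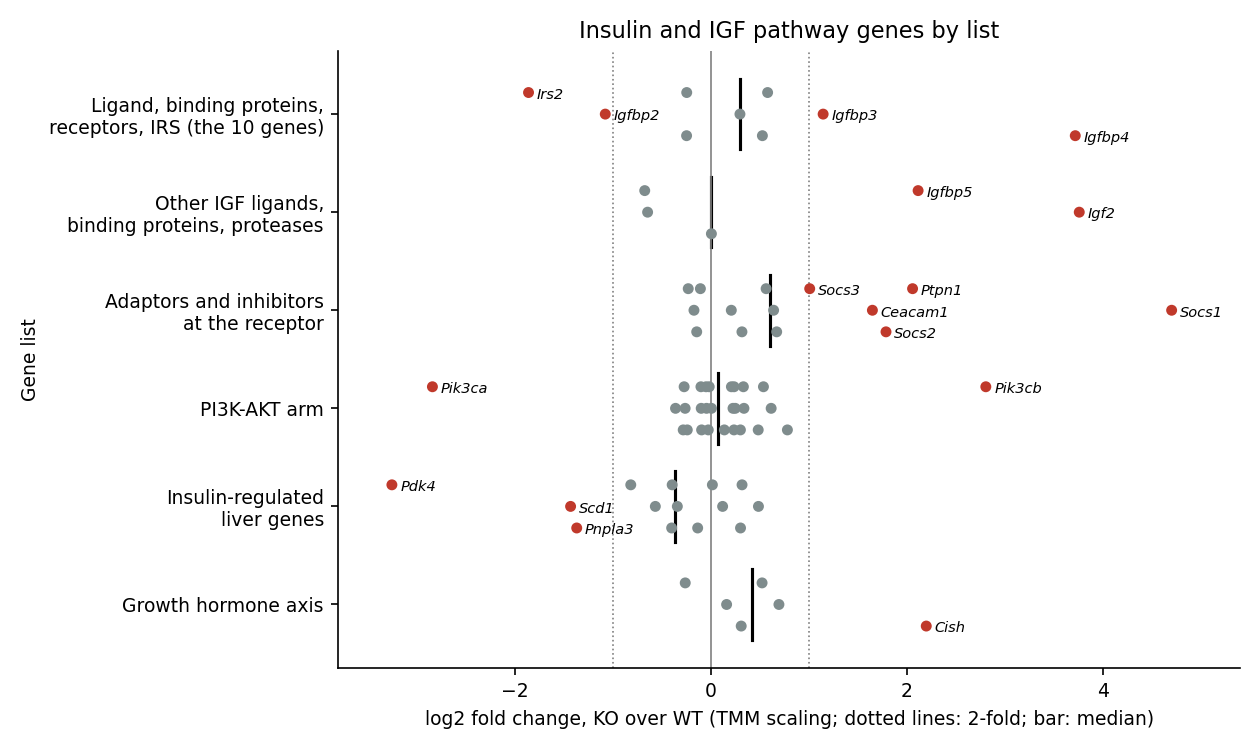
Log2 fold change of the KO over the WT library (TMM scaling) of each gene that reached 10 counts over both libraries, for the 10 genes described here and the 5 pathway lists. Black bars are list medians, red points lie past 2-fold (dotted lines), and *Socs1*, with 0 WT counts, is drawn at a fitted value that is not a bound. Most points of every list lie between the dotted lines, and *Igfbp4* and *Igf2* are the farthest to the right in the upper 2 lists.

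A wider list, the genes that the deposited annotation places in the KEGG insulin signaling pathway, gave a share below that of all genes. Beside *Insr*, *Irs1* and *Irs2* it names 133 genes, of which 113 had enough counts, and 12 of these were higher and 4 lower by at least 2-fold, 14.2% against 19.4% of all genes. Their median was 0.04. Farthest above 0 among those with at least 100 counts in the higher library was *Mknk2*, a kinase of the translation factor eIF4E, with 1246 KO and 59 WT counts (4.98, 4.62 to 5.39). *Inpp5k*, an inositol phosphatase, had 157 and 82 (1.52, 1.14 to 1.93), or 0.92 with total counts. *Nras*, a small GTPase of the MAPK branch, was lower, with 56 and 432 counts (−2.35, −2.78 to −1.95).

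Seed matches to miR-182-5p in the pathway genes above, searched for all but those named after their values were seen, lay beside log2 fold changes of either sign. Some of these genes were named because they were past 2-fold, so large changes of either sign were built into the set. Over all genes, 4.63% held the 8-base match and 19.2% a 7- or 8-base match. The 8-base match occurred once in *Foxo1* and *Pdk4* and at 2 places in *Foxo3*, whose log2 fold changes were 0.23, −3.25 and 0.24. A 7-base match without an 8-base one occurred in *Cish*, *Ghr*, *Grb10*, *Inpp5k*, *Pik3ca*, *Pik3r1*, *Ptpn1*, *Scd1*, *Socs2* and *Stat5b*, which ran from −2.84 for *Pik3ca* to 2.20 for *Cish*. *Igf1*, with an 8-base match, stood at 0.58 (−0.02 with total counts), and *Igfbp4* and *Igfbp2*, with none, at 3.72 and −1.08.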

How the data were processed

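Liver RNA of 1 miR-182-5p KO and 1 WT library was analysed from a gene table that the authors deposited. Per the labels the libraries were made from total RNA with standard Illumina protocols. The paper reports that mRNA was selected by its poly(A) tail during library preparation. The submitters' processing notes name HISAT2 2.0.4, StringTie and edgeR. The notes name a human build (hg38), whereas the identifiers are mouse and the deposited coordinates are those of GRCm38 in GENCODE M21 for 80.8% of 34267 shared identifiers, and for 6 of the 10 genes described. The deposited counts are whole reads per gene without normalization. The FPKM values the authors computed follow from the counts and the total count, since the count per FPKM was 1.006 to 1.007 times higher in the KO library for each gene with counts in both. The group of each library came from its genotype label, and the day from the paper.

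Counts were scaled by TMM in edgeR 4.0.16 (R 4.3.3), and log2 fold changes were taken with a prior count of 0.5. A gene was assessed from 10 counts over both libraries and called past 2-fold. Intervals are exact 95% binomial intervals of the KO share of a gene's reads, or exact Poisson intervals of a level. They cover counting error only. They treat every read as independent, so that PCR copies would make them too narrow. The depth, 13247497 and 13163348 counts, leaves genes with few counts wide intervals. Alternatives were total counts, total counts without mitochondrial genes, DESeq2 1.42.0 size factors, upper quartile scaling, a prior count of 5, the deposited FPKM plus a pseudocount of 0.1, minimums of 1 and 50 counts, an exact binomial test of the reads (two-sided, Benjamini-Hochberg), edgeR's exact test with assumed coefficients of variation of 0.2 and 0.4 (adjusted p-value threshold 0.05), and a 1.5-fold call. Of each pathway list, genes past 2-fold with at least 100 counts in the higher library were named, up to 5 per direction, beside a fixed set of 17 pathway genes. The steps were tested on simulated counts. Tables and sequences were handled in Python 3.11.15 (scipy 1.17.1, numpy 2.4.6, pandas 2.3.3, matplotlib 3.10.9). A few genes that these rules name are not reported here. The genes and lists were chosen with earlier results of these data known.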

Additional observations from a re-analysis of the deposited data

How the results depend on the processing

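No paired analysis was possible because there was a single library for either genotype, and none could be left out. Of the 38 genes selected by the rules, 0 changed the direction of a 2-fold call. With DESeq2's size factors, upper quartile scaling or a prior count of 5 all 38 stayed within their counting intervals, and without the mitochondrial genes 34 did. With total counts 33 moved, all of them downward, because that scaling shifts all genes. The median of the 9 genes assessed, 0.30, became −0.30 with total counts or FPKM, where the median of all genes was −0.60 and −0.54, and 0.41 with a minimum of 1 count (10 genes) or of 50 counts (8 genes). The 2 genes higher became 1 with total counts, with FPKM and with an assumed coefficient of variation of 0.2 or 0.4, and *Igfbp4* was the 1 left each time. They became 3 with the minimum of 1 count, which added *Igf1r* with its 5 KO and 3 WT counts. The 2 lower became 1 with the minimum of 50 counts and 0 with either assumed coefficient of variation. In the pathway lists the 4 lower became 8 with total counts or FPKM, 7 with the minimum of 1 count or a 1.5-fold call and 0 with a coefficient of 0.4, and the 9 higher became 14 at 1.5-fold and 0 with 0.4. In the deposited insulin signaling annotation, here with *Insr*, *Irs1* and *Irs2* (116 genes assessed), the 5 lower became 22 with total counts and 19 with FPKM. They became 9 and 2 with minimums of 1 and 50 counts, 2 and 0 with coefficients of 0.2 and 0.4 and 12 at 1.5-fold. The 12 higher became 8 with total counts, 7 with FPKM, 2 with a coefficient of 0.4 and 23 at 1.5-fold. In the pathway lists and this annotation the remaining settings changed these numbers by less or not at all. The causes were not tested beyond the construction of each alternative. With exon lengths of GENCODE M21, an alternative chosen after seeing the data, 6 of 10 genes in the KO and 8 in the WT library kept their place in the order of levels. Depth limits *Igf1r* and *Irs2*, with 8 and 21 counts over both libraries.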
